A study of Mus musculus with 60 samples.

Results

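The hippocampus (HPC) and the hypothalamus (HYP) of vehicle injected mice were compared over all 770 genes of a neuroinflammation panel, in every vehicle HPC and HYP sample with values, 10 HPC and 7 HYP samples of the 56 in the series with values. The mice were adult female Balb/C, 13 weeks old at collection, and carried no tumor. Each had received 0.1 mL of DMEM, the medium used to carry tumor cells in the other mice of the study, by injection in inguinal mammary glands (the 4th and the 9th) 25 days before collection, so these are handled and injected animals and not untouched ones. They were kept under 14 h of light and 10 h of dark and perfused with phosphate-buffered saline at mid-dark (ZT19, 5 mice) or mid-light (ZT7, 5 mice). ZT is zeitgeber time, the hours since lights on. Both regions were dissected from brains held in RNAlater, and RNA was assayed on the nanoString nCounter platform, which counts colour-coded probes bound to each transcript without amplification. HYP samples of mice 12 and 32 (mid-dark) and 10 (mid-light) had no values. This left 3 HYP samples at mid-dark, 4 at mid-light, and 7 mice with both regions.

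The HPC is a layered structure built mostly of glutamatergic pyramidal and granule neurons, whose plastic synapses serve memory. The HYP is a set of small nuclei of mixed glutamatergic, GABAergic and peptidergic neurons that run hormone release, feeding and body temperature. Microglia, astrocytes and oligodendrocytes are found in both, and each region borders a ventricle lined by ependyma. All values here are log2 expression values after the authors' normalization, and a log2 FC is the HPC minus the HYP mean, averaged equally over mid-dark and mid-light, so positive values are higher in HPC. In bulk tissue, fewer cells of a type and less RNA per cell cannot be told apart.

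Of the 770 genes, 461 differed between the regions (adjusted p value under 0.05, limma with the mouse as a block), which is 59.9% of the panel. Values were higher in HPC for 192 genes (24.9%) and higher in HYP for 269 (34.9%). Most differences were small, with 264 of the 461 below 0.5 on the log2 scale, while 45 genes (5.84%) were higher by at least 1 in HPC and 25 (3.25%) in HYP. The ranges of the 10 HPC and 7 HYP samples did not overlap for 200 genes, 92 higher in HPC and 108 higher in HYP. For 323 of the 461 genes the sign was the same in all 7 mice with both regions. These mice also gave the calls, so the shared sign is not separate support for them. The direction of the count depended on scaling. When the mean of the 13 panel reference genes, which was 9.18 in HPC and 9.30 in HYP, was subtracted from each sample, 407 genes differed and 60.2% of them were higher in HPC, against 41.65% in the deposited scale. The median log2 FC over all genes then moved from -0.05 to 0.07. Counts with this scaling are given beside each gene group whose count of calls it changed. The counts of each group on the deposited scale are to be read against the panel shares of 24.9% and 34.9%.

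**Figure D1:**
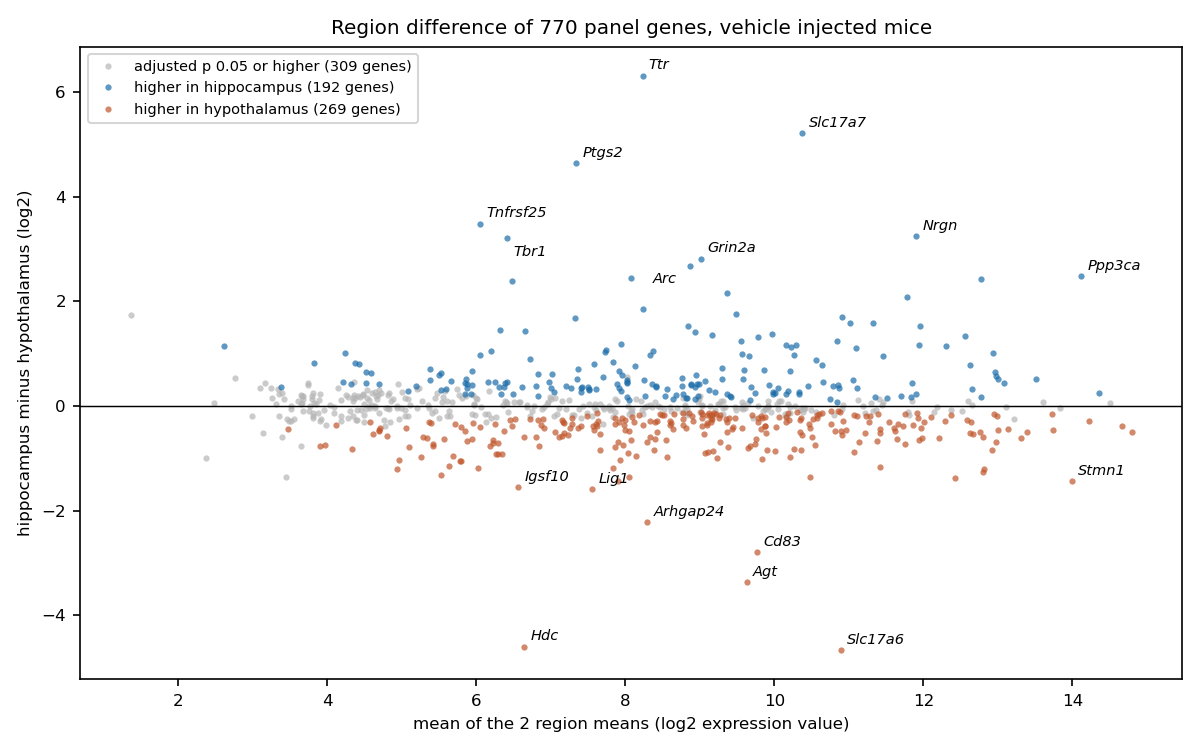
Log2 FC of each of the 770 panel genes (HPC minus HYP, y axis) against the mean of both region means (log2 expression value, x axis) in vehicle injected mice. Blue points are the 192 genes higher in HPC, orange points the 269 higher in HYP and grey points the 309 with an adjusted p value of 0.05 or higher; Ttr lies highest at 6.31 and Slc17a6 lowest at -4.67.

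The dissections were checked against region markers. The 4 measured markers of hippocampal and cortical glutamatergic neurons were all higher in HPC, and the 4 measured markers of hypothalamic neurons were all higher in HYP. Slc17a7, the vesicular glutamate transporter VGLUT1 of cortical and hippocampal neurons, lay between 12.65 and 13.29 (median 13.05) in HPC and between 6.17 and 9.05 (median 8.20) in HYP. Slc17a6, the transporter VGLUT2 of hypothalamic, thalamic and brain stem neurons, lay between 7.20 and 10.05 (median 8.76) in HPC and between 13.04 and 13.41 (median 13.22) in HYP. Hdc, histidine decarboxylase, which makes histamine in the tuberomammillary nucleus, lay between 3.88 and 4.72 (median 4.37) in HPC and between 8.27 and 9.60 (median 8.96) in HYP. No HPC sample reached the range of the HYP samples for any of the 8 markers, or the reverse, so the labels and the markers go together in all 17 samples. The Y-linked probes Uty and Kdm5d, which have no target in females, reached 4.52, and a gene at or under that level cannot be told from background, so a difference from such a region is a lower bound. The HPC mean of Hdc (4.33) was under it, and set against 4.52 Hdc was higher in HYP by at least 4.43 on the log2 scale. The log2 FC was 5.22 ± 0.31 for Slc17a7, -4.67 ± 0.29 for Slc17a6 and, from the values as deposited, -4.60 ± 0.18 for Hdc (SE; adjusted p = 5.8e-10, 9.9e-10 and 2.8e-12 in limma).

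Nrgn, a postsynaptic calmodulin-binding protein of forebrain principal neurons, had a log2 FC of 3.25 ± 0.09, and Tbr1, a transcription factor of cortical glutamatergic neurons, 3.22 ± 0.17, with a HYP mean (4.81) near the Y-linked probes. Camk4, a calcium-dependent kinase of the nucleus, was higher in HPC by 1.39 ± 0.06. Dlx1 and Dlx2, homeobox factors of GABAergic neurons, were lower in HPC, with a log2 FC of -1.19 ± 0.15 and -0.92 ± 0.12. The medians of both marker lists were 3.24 and -2.90, against -0.05 over all genes.

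**Figure D2:**
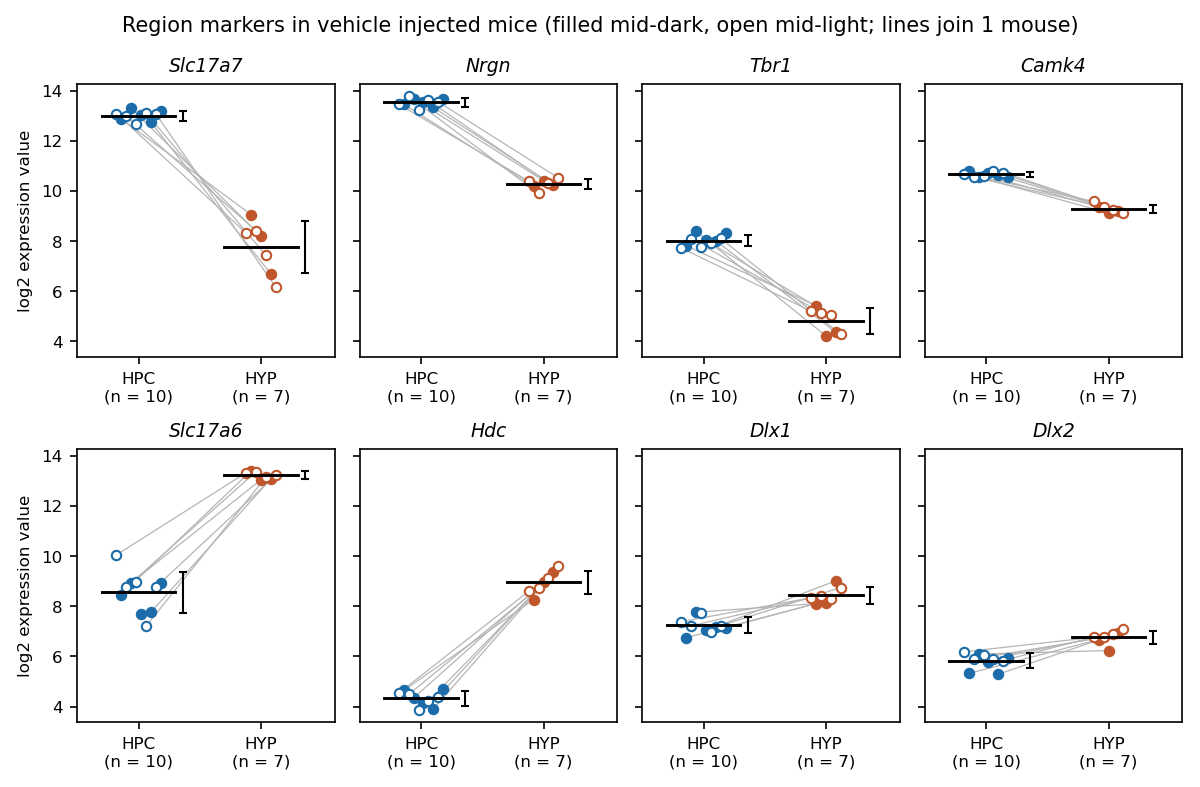
Log2 expression values (y axis) of 8 region markers in each HPC (blue, n = 10) and HYP (orange, n = 7) sample, with filled circles for mid-dark, open circles for mid-light and grey lines joining both regions of 1 mouse. Black bars are the means with the SD beside them; the regions do not overlap for any of the 8 genes, and Slc17a7 in HYP and Slc17a6 in HPC spread more widely than the same genes in the other region.

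Each region also held a varying amount of the other kind of glutamatergic transcript. Slc17a7 had an SD of 1.03 in HYP but 0.20 in HPC, and Slc17a6 an SD of 0.82 in HPC but 0.15 in HYP. Hdc was set against Slc17a7, Tbr1, Nrgn and Dlx1 over the HYP samples, in vehicle and in tumor-bearing mice, 8 relations in all. Vehicle samples with more Slc17a7 had less Hdc. Mouse 4 had the highest Slc17a7 value (9.05) with the lowest Hdc value (8.27), and mouse 30 had the lowest Slc17a7 value (6.17) with the highest Hdc value (9.60). Pearson's r was -0.97 and Spearman's rho -0.96 (exact permutation tests, n = 7, p = 0.00079 and 0.0028; 0.0064 and 0.022 adjusted over the 8 relations), and r was -0.92 without the 2 samples farthest from the median of Hdc. The same pair gave r = -0.77 and rho = -0.82 in the 10 HYP samples of tumor-bearing mice (permutation tests, n = 10, p = 0.012 and 0.0061; 0.031 and 0.024 adjusted). There r was -0.73 without the 2 farthest samples. With values centred within time of day and permuted within it, an alternative chosen after seeing the data, r was -0.97 in vehicle and -0.83 in tumor-bearing mice (exact permutation tests, adjusted p = 0.037 and 0.0094). Tbr1 gave r = -0.81 and rho = -0.79 in vehicle mice, which did not pass (permutation tests, adjusted p = 0.066 and 0.096, and r = -0.63 without the 2 farthest samples), and r = -0.84 and rho = -0.76 in tumor-bearing mice (adjusted p = 0.0068 and 0.039 by permutation, and r = -0.73 without the 2 farthest). Nrgn and Dlx1 did not pass, with r = 0.46 and 0.73 in vehicle mice and 0.22 and 0.02 in tumor-bearing mice (rho = 0.50, 0.68, 0.19 and 0.04; permutation tests, adjusted p = 0.41, 0.097, 0.61 and 0.95 for r and 0.36, 0.18, 0.70 and 0.92 for rho). With Slc17a7 in HYP and Slc17a6 in HPC as covariates, an alternative chosen after seeing the data, 198 genes were higher in HPC and 276 in HYP.

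Ttr, transthyretin, the thyroxine carrier made in bulk by the choroid plexus, had the largest difference of the panel. In HPC it was 14.71, 14.01, 14.01, 13.25, 12.25, 12.14, 11.46, 7.78, 7.71 and 6.62, the last 3 in mice 12, 6 and 28, whereas HYP samples lay between 4.79 and 5.20 (median 5.08). The HYP values of Ttr were near the Y-linked probes (4.52). Even the lowest HPC sample was above all HYP samples, but the HPC values themselves differed widely, with low samples at both times of day. The log2 FC was 6.31 ± 1.05 (adjusted p = 7.8e-05), the largest SE of any gene named here. Trp73, a p53 family factor of ependymal cells and Cajal-Retzius neurons, was also higher in HPC, but its range there was narrow (6.54 to 7.01, against 5.41 to 6.01 in HYP; log2 FC 1.05 ± 0.08, adjusted p = 7.9e-09). Other markers of choroid plexus on the list used, Folr1, Kl and Clic6, are not on the panel. With Ttr as a covariate within region, also chosen after seeing the data, 193 genes were higher in HPC and 273 in HYP.

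Activity-induced genes, which neurons transcribe within minutes to hours of calcium entry, were mostly higher in HPC. Of 12 measured, 7 were higher in HPC, 2 were higher in HYP and 3 did not differ by the test, with a median log2 FC of 1.15. Ptgs2, cyclooxygenase-2, the inducible prostaglandin synthase found in forebrain excitatory neurons, lay between 9.37 and 10.21 (median 9.68) in HPC and between 4.51 and 5.22 (median 5.13) in HYP. Arc, a synaptic capsid-forming protein that drives AMPA receptor removal, lay between 9.63 and 10.76 (median 10.14) in HPC and between 7.47 and 7.59 (median 7.50) in HYP. All 10 HPC samples were above all 7 HYP samples for both genes, with a log2 FC of 4.65 ± 0.11 for Ptgs2 and 2.67 ± 0.14 for Arc (adjusted p = 1.6e-14 and 1.3e-10), and Arc was nearly flat across HYP (SD 0.04, against 0.39 in HPC). The HYP mean of Ptgs2 (5.00) was near the Y-linked probes (4.52), and its lowest HYP sample was under them.

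Nptx1, a secreted pentraxin that clusters AMPA receptors, had a log2 FC of 2.42 ± 0.12. Homer1, a postsynaptic scaffold, had 1.59 ± 0.06, Bdnf, the neurotrophin, 1.41 ± 0.08, and the transcription factors Egr1 and Jun 1.17 ± 0.16 and 1.12 ± 0.07. The immediate early gene Fos went the other way, from 7.96 to 9.18 (median 8.59) in HPC and from 9.15 to 10.27 (median 9.46) in HYP. The ranges of Fos overlapped slightly, and Fos was higher in HYP in 7 of 7 mice (log2 FC -0.90 ± 0.18, adjusted p = 0.00042). Maff, a small Maf factor, was also higher in HYP, by 1.06 ± 0.09 on the log2 scale. Atf3, Crem and Gadd45g did not pass the test, with log2 FC of -0.13, -0.14 and 0.01.

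**Figure D3:**
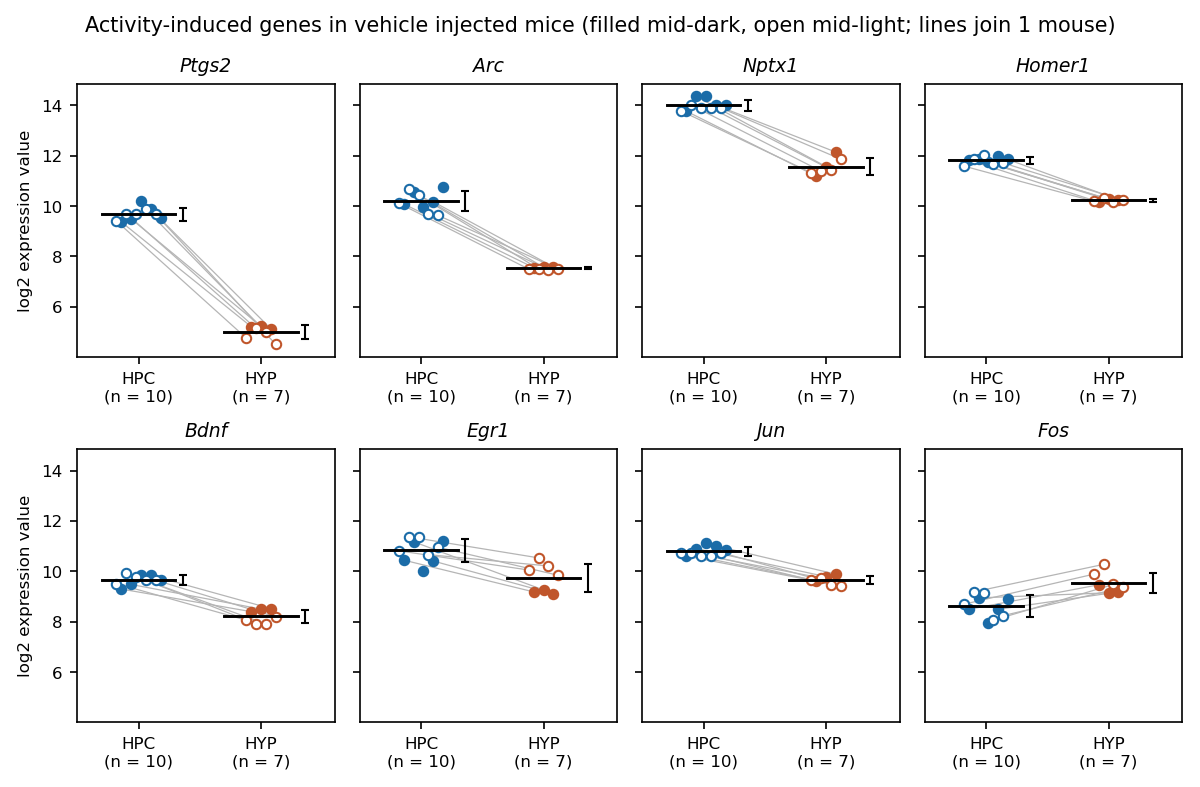
Log2 expression values (y axis) of 8 activity-induced genes in each HPC (blue, n = 10) and HYP (orange, n = 7) sample, drawn as for the region markers, with means, SD and lines joining 1 mouse. Ptgs2, Arc and Nptx1 separate the regions most, while Fos is the gene of the 8 that is higher in HYP.

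Since these genes moved in both directions, their promoters were searched for TGACGT, the core shared by cAMP response elements, on both strands. Windows of 300 bases, from 250 before to 50 after the start, came from RefSeq (GRCm38.p6). Of the 12 genes, 8 had a window and 6 of these held the letters, namely Ptgs2, Homer1 and Bdnf (higher in HPC), Fos and Maff (higher in HYP) and Atf3 (no call). By window the letters were in 6 of 17, against 7.51% of the 32851 windows in the table. The search was made with the values known, genes of this list are known for such elements, and a match is a run of letters and not a bound site. A pair from each direction is shown 5′ to 3′, with each match in capitals (ACGTCA is the same letters on the other strand), to let the windows be compared. Ptgs2 is at chr1:150099781-150100080 (plus strand), Homer1 at chr13:93303507-93303806 (plus), Fos at chr12:85473640-85473939 (plus) and Maff at chr15:79347270-79347569 (plus).
Ptgs2: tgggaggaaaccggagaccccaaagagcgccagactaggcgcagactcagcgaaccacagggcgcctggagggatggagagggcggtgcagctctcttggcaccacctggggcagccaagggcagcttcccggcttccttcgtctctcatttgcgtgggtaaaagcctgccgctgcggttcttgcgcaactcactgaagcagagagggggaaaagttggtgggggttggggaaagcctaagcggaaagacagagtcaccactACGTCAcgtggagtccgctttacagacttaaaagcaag
Homer1: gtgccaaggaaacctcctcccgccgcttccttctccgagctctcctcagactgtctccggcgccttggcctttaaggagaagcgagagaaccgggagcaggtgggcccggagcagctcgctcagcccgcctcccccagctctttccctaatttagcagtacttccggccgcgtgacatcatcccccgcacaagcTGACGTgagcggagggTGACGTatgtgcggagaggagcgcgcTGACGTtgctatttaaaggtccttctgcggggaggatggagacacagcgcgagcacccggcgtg
Fos: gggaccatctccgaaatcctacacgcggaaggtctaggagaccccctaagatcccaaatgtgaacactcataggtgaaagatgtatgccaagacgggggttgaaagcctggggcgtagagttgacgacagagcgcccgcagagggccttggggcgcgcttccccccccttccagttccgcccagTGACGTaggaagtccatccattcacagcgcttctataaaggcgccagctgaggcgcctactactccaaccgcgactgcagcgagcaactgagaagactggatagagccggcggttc
Maff: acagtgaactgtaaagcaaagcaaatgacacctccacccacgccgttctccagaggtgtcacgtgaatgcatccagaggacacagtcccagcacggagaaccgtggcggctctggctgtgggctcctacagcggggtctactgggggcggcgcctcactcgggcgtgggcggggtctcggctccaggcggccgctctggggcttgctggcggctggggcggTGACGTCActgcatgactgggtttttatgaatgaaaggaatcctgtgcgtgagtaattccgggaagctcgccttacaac
Ptgs2 and Fos held 1 match each. Homer1 held 3, and in Maff 2 overlapping matches made the 8-letter palindrome. Ptgs2, the member with the largest difference, and both members higher in HYP thus held the same letters in a window. Other windows of Maff, Homer1 and Bdnf lacked them. Jun (higher in HPC) and Gadd45g (no call) held no match.

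Receptors for glutamate and the scaffold beneath them were higher in HPC for 9 of 13 genes, higher in HYP for 3 and not different by the test for 1, with a median log2 FC of 0.43 (9 and 2, median 0.56, with the reference genes subtracted). Among NMDA receptor subunits, Grin2a lay between 10.16 and 10.77 (median 10.39) in HPC and between 7.36 and 8.03 (median 7.59) in HYP. Its log2 FC was 2.82 ± 0.09 (adjusted p = 7.3e-13) and the regions did not overlap, and Grin2b, the other regulatory subunit measured, had 1.58. AMPA receptor subunits were split. Gria1 and Gria2 were higher in HPC by 1.15 and 1.34 on the log2 scale, whereas Gria4 lay between 10.56 and 11.20 in HPC and between 11.93 and 12.14 in HYP (log2 FC -1.17 ± 0.07, adjusted p = 5.1e-10). The postsynaptic adhesion proteins were split too, with Nlgn1, a neuroligin of excitatory synapses, at 0.43 and Nlgn2, the neuroligin of inhibitory synapses, at -0.42.

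Pan-neuronal and axonal genes had no common direction. Of 14, 7 were higher in HPC, 5 in HYP and 2 did not pass (median 0.24; 8 and 3, median 0.36, with the reference genes subtracted). Islr2, a membrane protein of axon guidance, was higher in HPC by 2.15 ± 0.09 and Rbfox3, the nuclear antigen NeuN, by 0.96 ± 0.05. On the HYP side were Tubb3, Stmn1, Mapt, Tubb4a and Pacsin1. The calls of Tubb4a (-0.31) and Pacsin1 (-0.16) were lost with the reference genes subtracted. Stmn1, stathmin, which destabilises microtubules, lay between 13.04 and 13.45 (median 13.29) in HPC and between 14.47 and 15.36 (median 14.58) in HYP. The Stmn1 ranges were apart (log2 FC -1.44 ± 0.10, adjusted p = 3.2e-09), as were those of Tubb3, neuronal beta-tubulin, at -1.20 ± 0.04, and Mapt, the microtubule protein tau, at -0.51 ± 0.04.

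In calcium and cAMP signalling, 6 of 18 genes were higher in HPC, 8 in HYP and 4 did not pass (median -0.14). With the reference genes subtracted the counts were 7 and 7. The calcineurin phosphatase genes Ppp3ca and Ppp3cb (catalytic) and Ppp3r1 (regulatory) were higher in HPC, with log2 FC of 2.49, 0.78 and 1.02, and Ppp3r2, which is best known from testis, was higher in HYP (-0.63). Ppp3ca was at 15.36, the top of the scale that quantile normalization gives to each sample, in all 10 HPC samples and lay between 12.80 and 12.97 in HYP, so its HPC value is a rank and the spread there is 0 by construction. All 5 protein kinase A genes were higher in HYP, from Prkar1a (-0.46) through Prkar2b, Prkaca and Prkar2a (-0.82, -0.85 and -0.88) to Prkacb (-1.26 ± 0.05, adjusted p = 1.4e-12). The kinase genes Prkce, Camk4 and Mapk10 were higher in HPC, by 1.52, 1.39 and 0.44 on the log2 scale. Rapgef3, a cAMP-activated exchange factor for Rap, and Pak1, a kinase downstream of Rac, were also higher in HYP (-0.54 and -0.14), the latter a call lost with the reference genes subtracted.

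Astrocyte markers were mostly higher in HYP, with 10 of 14 higher there, 3 higher in HPC and 1 that did not pass (median -0.47; 8 and 3, median -0.35, with the reference genes subtracted). Agt, angiotensinogen, the precursor of angiotensin made by astrocytes in the brain, lay between 7.31 and 8.25 (median 8.01) in HPC and between 11.12 and 11.52 (median 11.35) in HYP. Kcnj10, the potassium channel Kir4.1, lay between 11.55 and 11.90 (median 11.75) in HPC and between 13.01 and 13.22 (median 13.11) in HYP. Neither gene overlapped between the regions, and the log2 FC was -3.36 ± 0.12 for Agt and -1.37 ± 0.05 for Kcnj10 (adjusted p = 9.8e-13 for each). General astrocyte markers differed less. Aldh1l1, a folate enzyme, was at -0.51 ± 0.04, S100b, a calcium-binding protein, at -0.68 ± 0.07, Gja1, a gap junction connexin, at -0.44 ± 0.06, and Slc1a3, the glutamate transporter GLAST, at -0.14, a call lost with the reference genes subtracted (-0.02). Sox9, the nuclear factor of astrocytes, did not pass (-0.06), and Itga7, an integrin subunit, was higher in HPC by 0.81 ± 0.11.

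Homeostatic microglia genes went the other way. Of 13, 11 were higher in HPC, 0 were higher in HYP and 2 did not pass (Gpr84 and Sall1), with a median log2 FC of 0.36. With the reference genes subtracted, 12 were higher in HPC and the median was 0.48. Fcrls, an Fc receptor-like gene of mouse microglia, lay between 7.12 and 7.71 (median 7.39) in HPC and between 5.73 and 6.27 (median 5.94) in HYP (log2 FC 1.43 ± 0.09, adjusted p = 6.6e-10). The regions did not overlap for Fcrls or for Mertk, a receptor for apoptotic cells, which had a log2 FC of 0.98 ± 0.06. The genes most used to mark microglia differed less. P2ry12, the purinergic receptor of their processes, had 0.52 ± 0.07, Cx3cr1, the fractalkine receptor, 0.34 ± 0.04, Tmem119 0.23 ± 0.05 and Csf1r, the receptor that keeps them alive, 0.22 ± 0.05, and each of these overlapped between the regions.

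**Figure D4:**
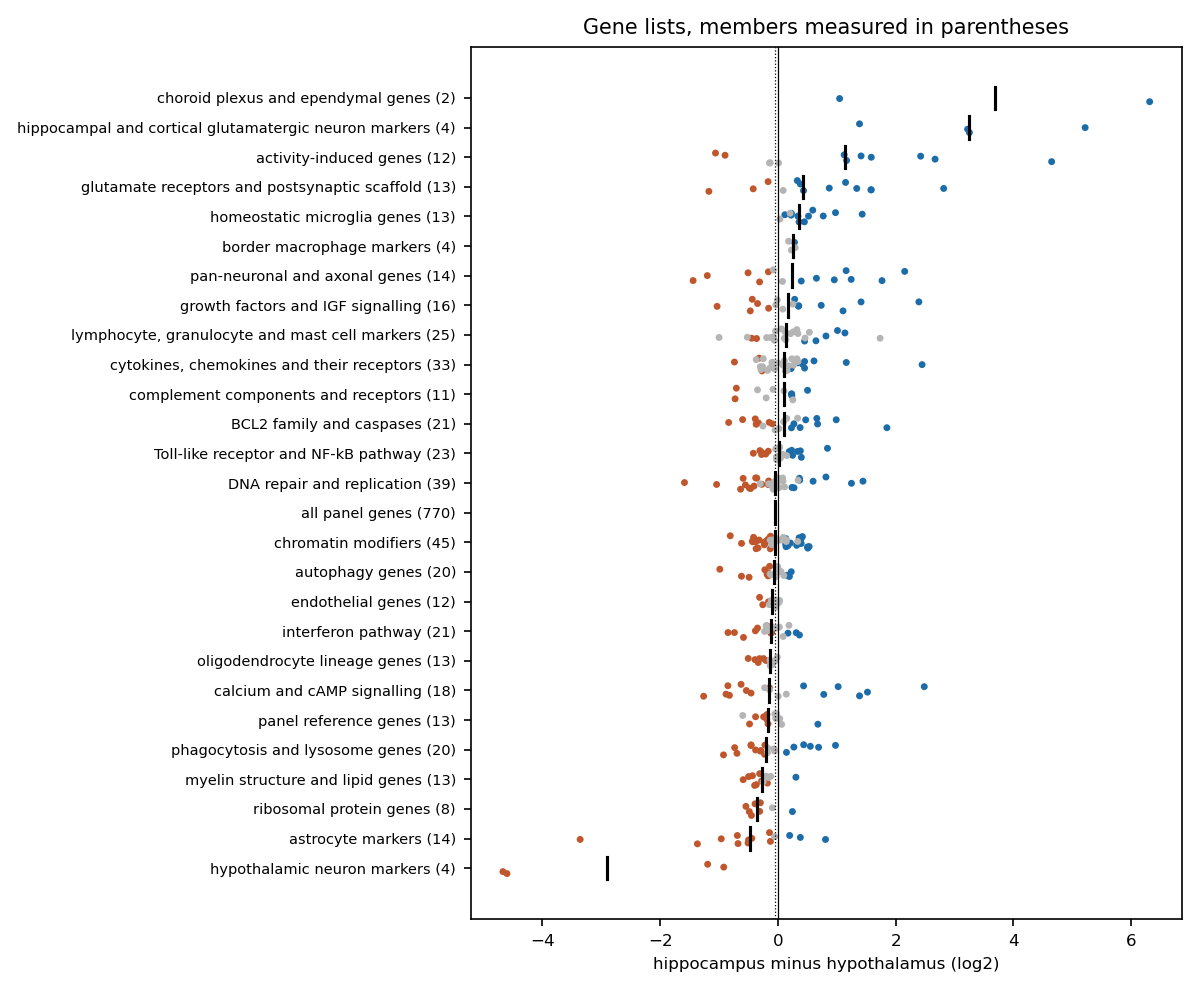
Log2 FC (HPC minus HYP, x axis) of the members of each gene list (y axis, number measured in parentheses), with blue for members higher in HPC, orange for higher in HYP and grey for an adjusted p value of 0.05 or higher. Black ticks are list medians and the dotted line is the median over all genes (-0.05); microglia genes sit on the HPC side and astrocyte markers on the HYP side, while chromatin and DNA repair genes spread around 0.

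Of 20 phagocytosis and lysosome genes, 6 were higher in HPC and 10 in HYP (median -0.20; 6 and 7 with the reference genes subtracted). Mertk, Mfge8, the bridge to phosphatidylserine (0.69), Cd68 (0.55) and Trem2 (0.44), the lipid receptor of microglia, were higher in HPC, as was Man2b1, a lysosomal mannosidase (0.14). Lgmn, an asparaginyl protease, Lamp1, a lysosomal membrane protein, and Ctsf, a cathepsin, were higher in HYP, with log2 FC of -0.74 ± 0.05, -0.70 ± 0.04 and -0.46. Cd36, a scavenger and fatty acid receptor, had -0.92 ± 0.15, and Axl, a receptor for apoptotic cells like Mertk, -0.22, a call lost with the reference genes subtracted. Among 11 complement genes, 4 were higher in HPC and 2 in HYP (median 0.10; 5 and 2, median 0.23, with the reference genes subtracted). Itgam, a subunit of complement receptor 3, had 0.50, and C1qa and C1qc, chains of the first component, had 0.23 and 0.24, whereas C4a was at -0.73 ± 0.06 and C3, the central component, at -0.71 ± 0.19.

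Myelin structure and lipid genes were higher in HYP for 8 of 13, higher in HPC for 1 (Opalin, 0.31 ± 0.10, a call lost without mouse 22 or 28) and not different by the test for 4, with a median of -0.28. Cnp, a myelin phosphodiesterase, lay between 12.27 and 12.87 (median 12.44) in HPC and between 12.83 and 13.29 (median 13.15) in HYP (log2 FC -0.59 ± 0.07, adjusted p = 3.3e-06). The Cnp ranges overlapped slightly. Oligodendrocyte lineage genes were higher in HYP for 6 of 13 and in HPC for 0 (median -0.14), led by Plekhb1 at -0.51 ± 0.07, and the lineage factors Sox10 and Myrf did not pass (-0.14 and -0.10). Most of these calls rested on the scale. With the reference genes subtracted, 2 myelin genes and 1 lineage gene were higher in HYP.

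Endothelial genes differed little, with 3 of 12 higher in HYP, 0 in HPC and a median of -0.10, and with the reference genes subtracted none passed and the median was 0.02. Slc2a1, the glucose transporter of the blood-brain barrier, was the leading one at -0.31 ± 0.06, and Cldn5, a tight junction protein, was at -0.12 and did not pass. Of 4 border macrophage markers 1 was higher in HPC (Ms4a4a, 0.28 ± 0.11, adjusted p = 0.041), a call that was lost without any 1 of 6 mice, 4, 6, 12, 28, 30 and 32 (adjusted p = 0.014 to 0.14 with each mouse left out). In both regions 81 genes were at or under the level of the Y-linked probes (4.52), 9 of them among the 461. Of 25 markers of lymphocytes, granulocytes and mast cells, 17 were at or under it in both regions. Among the 25, 5 were higher in HPC and 2 in HYP (median 0.13; 7 and 1, median 0.26, with the reference genes subtracted). Csf3r, the granulocyte colony-stimulating factor receptor, which microglia also carry, was at 6.48 in HPC and 6.03 in HYP. The T cell gene Cd8a lay between 2.46 and 3.73 (median 3.25) in HPC and was at 3.04, 2.87, 2.79, 2.59, 1.87, 1.87 and -0.37 in HYP, the last (mouse 28) being the lowest value in these samples. All of these values are under the Y-linked probes, so the log2 FC of Cd8a (1.14 ± 0.35, adjusted p = 0.011), one of the 45 past 1 in HPC, lies within the background.

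Cytokine, chemokine and receptor genes were mostly not different by the test, with 22 of 33 not called, 8 higher in HPC and 3 in HYP (median 0.11; 11 and 1 with the reference genes subtracted). In both regions 10 of the 33 had means at or under the Y-linked probes (4.52), where a gene cannot be told from background. The exceptions in size were both chains of the interleukin-1 receptor. Il1r1, the binding chain, lay between 9.01 and 9.51 (median 9.30) in HPC and between 6.48 and 7.16 (median 6.90) in HYP, and Il1rap, the accessory chain, between 10.45 and 11.03 (median 10.75) in HPC and between 9.30 and 9.96 (median 9.52) in HYP. Neither overlapped, with a log2 FC of 2.45 ± 0.10 and 1.16 ± 0.09 (adjusted p = 4.0e-12 and 1.3e-08). The ligands Il1a and Il1b, at 5.4 and 3.8 in HPC, did not pass (0.32 and -0.37), and Il1b in HPC was under the Y-linked probes. Tnfrsf25, death receptor 3 of the TNF receptor family, was among the 8 genes highest in HPC relative to HYP, between 6.57 and 8.55 (median 7.86) in HPC and between 4.03 and 4.73 (median 4.20) in HYP (log2 FC 3.49 ± 0.16 from the values as deposited, adjusted p = 1.8e-11). Its HYP mean (4.28) was under the Y-linked probes, and set against 4.52 Tnfrsf25 was higher in HPC by at least 3.29 on the log2 scale.

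Toll-like receptor and NF-kB genes were split, with 7 of 23 higher in HPC and 6 in HYP (median 0.02; 9 and 2 with the reference genes subtracted), and Relb, an NF-kB subunit, led at 0.84 ± 0.07. Interferon pathway genes were higher in HYP for 8 of 21 and in HPC for 3 (median -0.12), which became 3 and 5 (median 0.003) with the reference genes subtracted, so their balance had no direction that held. Mavs, the mitochondrial adaptor of RNA sensing, was higher in HYP on either scale (-0.85 ± 0.09), as was Gbp2, an interferon-induced GTPase (-0.59 ± 0.10).

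Growth factor and IGF signalling genes were higher in HPC for 7 of 16 and in HYP for 5 (median 0.17; 8 and 4, median 0.29, with the reference genes subtracted). Pik3r2, a regulatory subunit of phosphoinositide 3-kinase, was higher in HPC by 1.11 and Akt2, a kinase downstream of it, by 0.74, whereas Pik3r1, another regulatory subunit, was at -0.47 and Vegfa, the vascular growth factor, at -0.44. Of 21 BCL2 family and caspase genes, 8 were higher in HPC and 7 in HYP (median 0.10; 10 and 4, median 0.22, with the reference genes subtracted). Hrk, a neuronal BH3-only death activator, was higher in HPC by 1.85 ± 0.09 and Bcl2, the survival factor, was higher in HYP (-0.84 ± 0.09).

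Autophagy genes were higher in HYP for 8 of 20 and in HPC for 3 (median -0.07; 3 and 5 with a median of 0.05 after subtracting the reference genes). The 3 with the smallest p values were Optn (-0.99 ± 0.04), Sqstm1 (-0.62 ± 0.05) and Pink1 (-0.49), all higher in HYP on either scale. Optn and Sqstm1 are receptors that link cargo to autophagosomes, and Pink1 is the kinase that marks damaged mitochondria. Of 45 chromatin modifiers, 15 were higher in HPC and 18 in HYP (median -0.05; 19 and 10 with a median of 0.07 after subtraction), and Suv39h1, a histone H3 lysine methyltransferase, had the largest difference (-0.81 ± 0.07). DNA repair and replication genes were higher in HPC for 8 of 39 and in HYP for 14 (median -0.04; 12 and 9 with a median of 0.08 after subtraction). To set beside the counts of these groups, 24.9% of all panel genes were higher in HPC and 34.9% in HYP on the deposited scale. Mcm6, part of the replicative helicase, and Parp1, a sensor of strand breaks, were higher in HPC by 1.44 ± 0.15 and 1.25 ± 0.06. Lig1, the ligase that joins Okazaki fragments, lay between 6.28 and 7.20 (median 6.79) in HPC and between 8.19 and 8.50 (median 8.36) in HYP, and its ranges were apart (log2 FC -1.59 ± 0.11, adjusted p = 2.1e-09).

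Among the genes most different towards HYP, Cd83, an immunoglobulin family protein best known from mature dendritic cells, lay between 8.15 and 8.68 (median 8.39) in HPC and between 10.97 and 11.29 (median 11.17) in HYP. Arhgap24, a GTPase-activating protein for Rac, lay between 6.75 and 7.45 (median 7.20) in HPC and between 9.20 and 9.53 (median 9.44) in HYP. Both were clear of overlap, with a log2 FC of -2.79 ± 0.06 and -2.22 ± 0.08 (adjusted p = 8.35e-15 and 1.3e-12), and Igsf10, another immunoglobulin family gene, had -1.56 ± 0.09. Of 8 ribosomal protein genes, 6 were higher in HYP and 1 in HPC (median -0.35; 5 and 1 after subtraction), from Rps9 (-0.54 ± 0.04) to Rps2 (0.25 ± 0.05). Rps2 was at 14.23 in all 7 HYP samples (SD 0), a tie that quantile normalization can give, and was higher in HPC in 6 of 7 pairs. The 13 panel reference genes were not level either, with a median of -0.17. Of these, 6 were higher in HYP and 1 in HPC (Xpnpep1, an aminopeptidase, 0.68 ± 0.06). With their own mean subtracted, 2 were higher in HYP and 3 in HPC (median -0.05).

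Whether the regional differences depended on time of day was asked next. For 460 of the 461 genes the log2 FC had the same sign at mid-dark and mid-light, with Hpgds, the haematopoietic prostaglandin D synthase, as the exception (-0.09 at mid-dark and 0.48 at mid-light). The 461 genes were called on the average of both differences in the same samples. A shared sign is thus largely given by the call and does not answer the question. The region by phase interaction passed an adjusted p value of 0.05 for 0 genes (0%) in limma, and 38 of 770 had an unadjusted p value under 0.05. The smallest belonged to Apoe, the main lipid carrier of the brain, with a log2 FC of -0.43 at mid-dark and -0.15 at mid-light, and to Nfkbie, an NF-kB inhibitor, with 0.63 and 0.16 (adjusted p = 0.148 for each). In simulated data of this size, with interactions in 200 of 770 genes, 84.5% of interactions of 1 on the log2 scale were found and 13% of interactions of 0.3. Most interactions of 0.3 would thus not be detectable with these mice. Interactions in fewer genes were not simulated, so these shares do not hold for them. Ptgs2 was at 4.49 and 4.81, Slc17a7 at 5.03 and 5.41, Hdc at -4.51 and -4.70 and Agt at -3.23 and -3.49 at mid-dark and mid-light. Ttr was at 5.60 and 7.03 (interaction -1.44 ± 2.10 on the log2 scale, adjusted p = 0.94 in limma) and Bdnf at 1.14 and 1.68 (-0.54 ± 0.16, unadjusted p = 0.0044, adjusted p = 0.678).

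The same comparison was made in the tumor-bearing mice, which had received 67NR mammary carcinoma cells and share no sample with the vehicle mice. There 486 of 770 genes differed between 10 HPC and 10 HYP samples (63.1%). Of the 461 genes of the vehicle mice, 458 had the same sign in tumor-bearing mice, 409 also passed there in the same direction and 0 passed in the opposite direction. The 3 with another sign were Cxcl10, Lcn2 and Ms4a4a, at -0.74, -0.77 and 0.28 in vehicle mice and 0.09, 0.35 and -0.08 in tumor-bearing mice, where none of them passed (adjusted p = 0.63, 0.41 and 0.76). In vehicle mice the means of Cxcl10 (3.61 in HPC, 4.33 in HYP) and Lcn2 (3.53 and 4.26) were under the Y-linked probes. Of the 70 genes past 1 on the log2 scale, 69 passed again, and the exception was Cd8a (1.14 and 0.81, adjusted p = 0.061 in tumor-bearing mice), which was under the Y-linked probes in all 17 vehicle samples. A further 77 genes passed in tumor-bearing mice but not in vehicle mice. The test of the difference between both sets, the region by tumor interaction, passed for 0 genes (0%) in limma and gave 40 unadjusted p values under 0.05, the smallest for E2f1, a cell cycle factor, with a log2 FC of 0.44 in vehicle (a call lost without mouse 8) and 1.10 in tumor-bearing mice, and for Trp53, the tumor suppressor p53, with 0.10 and 0.41 (adjusted p = 0.936 for each).

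**Figure D5:**
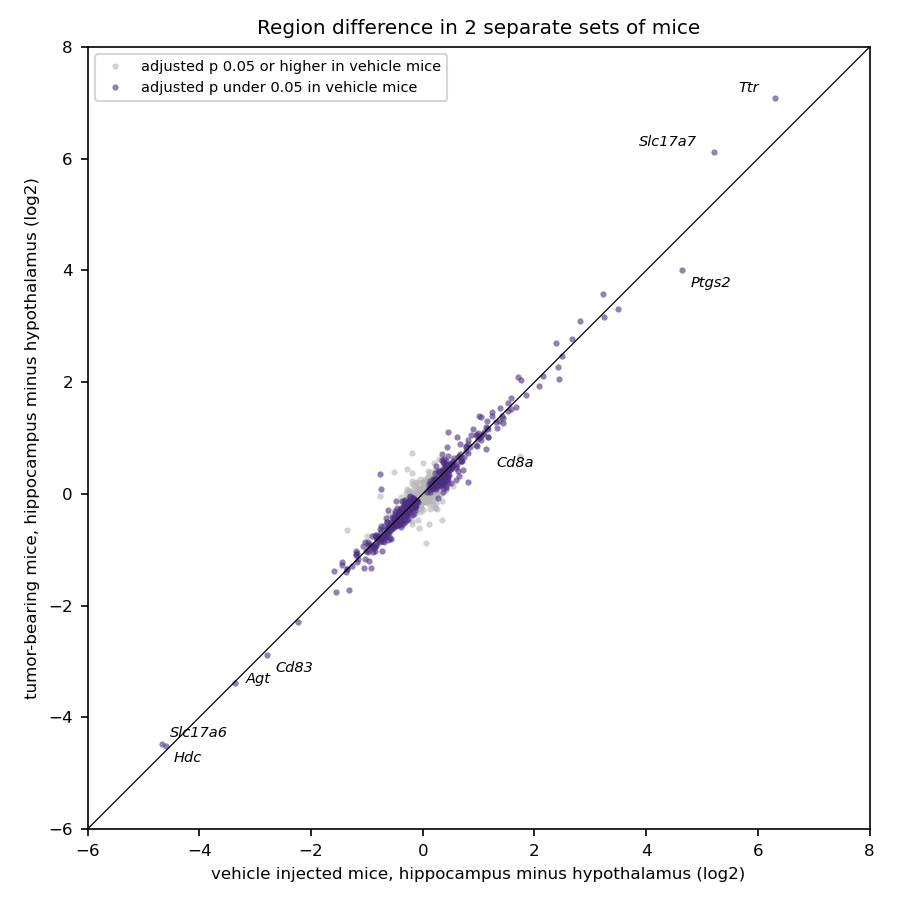
Log2 FC (HPC minus HYP) of each panel gene in tumor-bearing mice (y axis, 10 HPC and 10 HYP samples) against vehicle injected mice (x axis, 10 HPC and 7 HYP samples), with the line of equal values. Purple points are the 461 genes with an adjusted p value under 0.05 in vehicle mice; 458 of them have the same sign on both axes, and Cd8a is the gene past 1 on the x axis that did not pass in tumor-bearing mice.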

How the data were processed

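The deposited values are log2 expression values per panel gene. The authors counted probes with nSolver, subtracting the negative control background and scaling by positive controls and by the geometric mean of the codeset, and then applied quantile normalization in Partek. Per the labels, outliers by raw data had been removed beforehand. No raw counts entered the analysis, so the depth behind a value is not known, and precision is limited by how many mice there were. The median SD within region and time of day was 0.168 in HPC and 0.155 in HYP.

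The fits used limma 3.58.1 under R 4.3.3. The model had 4 means, 1 for each region and time of day, and took the mouse as a random block, since both regions came from the same animals (consensus correlation 0.123). The region difference was averaged over both times. Benjamini-Hochberg adjustment covered all 770 genes, at a threshold of 0.05. In simulated data made from these samples, 97% of differences of 1 on the log2 scale and 67% of differences of 0.3 were found among 200 changed genes of 770. Correlations and plots were made in Python 3.11.15 with scipy 1.17.1 and matplotlib 3.10.9. A tumor model with 8 means over all HPC and HYP samples gave the region by tumor interaction.

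Genes named by rule were the 8 highest in each region with the same sign in all 7 paired mice and a mean of at least 5, the region markers, up to 3 genes per list with the smallest p value, the largest called exception of each list, the 2 smallest interaction p values and the most different reference gene. Other genes were named after their values were seen. The comparison and the 25 gene lists beside the reference genes were chosen with earlier results of these data known.

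Alternatives were no block, a fixed block over paired mice, the methods' t-test, a trended robust variance, a filter on means under 5, 3 scalings, stricter thresholds, no time of day term, RNA concentration as a covariate, and each mouse left out.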

Additional observations from a re-analysis of the deposited data

Results flagged for a closer look

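Among the genes named by rule, each gene's values in each region were searched for 1 sample standing far from the rest (Dixon's criterion), which by chance alone marks about 1 in 20 groups. It marked 9 of 198. In HYP, Hrk was low in mouse 4 (6.79, the other samples lying between 7.27 and 7.5), Bcl2 was low in mouse 6 (7.83, against 8.07 to 8.2) and Mavs was low in the same mouse (8.38, against 8.75 to 9.03). Itgam was high in HYP of mouse 2 (7.97, the next at 7.79), Becn1, a core autophagy gene, in mouse 28 (11.9, the next at 11.8), Stmn1 in mouse 28 (15.36, the top of the scale, the next at 14.71) and Apoe in mouse 30 (14.47, all other samples at 14.35, a tie that quantile normalization can give). In HPC, Nfkbie was low in mouse 22 (5.83, the next at 6.05) and the ribosomal gene Rpl9 in mouse 8 (12.49, the next at 12.71).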

How the results depend on the processing

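Without the replicate block 186 genes were higher in HPC and 260 in HYP, with 460 called in tumor-bearing mice and 0 in either interaction. With a fixed replicate block over the 7 paired mice the counts were 180 and 236, 467, and 0. Leaving out each mouse gave 182 to 194 genes higher in HPC, 247 to 269 higher in HYP, 460 to 484 in tumor-bearing mice and 0 to 0 in each interaction. Subtracting the reference genes gave 245 and 162, and requiring a log2 difference of at least 1 gave 45 and 25. RNA concentration, with a median of 1188.5 ng per µl in HPC and 690.9 in HYP, is tied to region, and as a covariate it gave 179 and 225. The methods' t-test gave 184 and 247 after adjustment and 193 and 268 without. In the other alternatives tried the counts stayed within 1.5 times those reported. None of the 99 genes named by rule changed sign. Of the other genes described, which were checked with the reference genes subtracted, Sox9 and Myrf, neither called, turned sign (0.07 and 0.02). Among the named genes, leaving out 1 mouse ended the call for E2f1 (mouse 8, adjusted p = 0.052), Opalin (22 or 28, up to 0.084), Tm4sf1 (6 or 28, up to 0.061), Cxcl10 (2, 6, 8 or 28, up to 0.17), Tlr2 (8, 10, 22, 28 or 32, up to 0.17) and Ms4a4a (6 mice, up to 0.14). Subtracting the reference genes ended 11 calls among the named genes, including Mag, Bcas1, Slc2a1 and Pmp22, and brought Trp53 under the threshold (adjusted p = 0.049). The cause was not tested. Low genes limit the comparison, since 137 of 770 had a mean under 5, and a value at the top of the scale holds only a rank. How far neighbouring tissue in each dissection bears on single genes was not tested. The covariates described follow levels within a region, so they cannot show what such tissue adds to the difference between regions.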
